A study of Mus musculus with 6 samples.

Results

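Endoplasmic reticulum (ER) chaperones and folding genes were described here in hippocampus of mice with and without knockdown of hepaCAM, a cell adhesion molecule of astrocytes. The group holds 10 of the 29872 genes listed, taken by gene symbol: Hspa5, Hsp90b1, Pdia3, Pdia4, Sdf2l1, Herpud1, Dnajb9, Calr, Canx and Xbp1. All 10 were found and all 10 passed the filter of a mean of at least 1 RPKM (reads scaled to exon length and to the depth of the library) over the 6 libraries. Both groups were C57BL/6 J mice. In the knockdown group, labelled shHepaCAM, an adeno-associated virus placed in the CA1 field on both sides was used to knock down hepaCAM by short hairpin RNA (3 libraries). The control libraries, labelled shControl with a wild-type genotype, also numbered 3, and whether these mice received a virus is not stated in the labels. Age, sex, the promoter of the hairpin and the number of mice per library are not stated either, and each p-value therefore speaks of the spread among libraries, which may be technical. Hippocampal tissue holds neurons, glia, vessels and adhering choroid plexus, and in such bulk samples fewer cells of a type and less RNA per cell cannot be told apart.

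Secreted and membrane proteins fold in the ER, where chaperones bind nascent chains, disulphide isomerases join cysteines and lectins hold glycoproteins until they are folded. When unfolded protein builds up, the sensors ATF6, IRE1 (gene Ern1) and PERK (gene Eif2ak3) switch on the unfolded protein response. Cleaved ATF6 and the spliced form of XBP1 raise the chaperone genes, while PERK slows translation and raises ATF4 and its targets, such as Ddit3. In brain these genes serve the secretory load of neurons, glia and the choroid plexus.

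Cleaved ATF6, together with the factor NF-Y, is known to act through ER stress elements near the start of chaperone genes, so the RefSeq promoter windows (250 bases before to 50 after the start, build GRCm38.p6) were searched on both strands. The type I element was taken as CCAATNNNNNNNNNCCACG and the type II element as ATTGG and CCACG with 1 base between them; a CCAAT box and a CCACG box are part of both. Only exact matches were counted, so copies that differ in a letter were passed over. A window was on hand for all 10 genes. Its last bases lay in an annotated transcript of the same gene for 9 of the 10, and not for Pdia4. The type I element was found in 4 of the 10, Hspa5, Hsp90b1, Calr and Canx, and in 39 of all 32851 windows of the same length (0.119%). The type II element was found in Herpud1 alone of the 10, and in 12 windows in all (0.0365%). The 10 genes were picked as chaperones and folding genes of the ATF6 and XBP1 branches. Elements through which ATF6 acts were thus likely among them beforehand, and these shares are a description only. The windows of these 5 genes are shown because they carry a type I or a type II element. They run 5′ to 3′ on the gene's strand, with the fixed letters of the elements in capitals.
Hspa5: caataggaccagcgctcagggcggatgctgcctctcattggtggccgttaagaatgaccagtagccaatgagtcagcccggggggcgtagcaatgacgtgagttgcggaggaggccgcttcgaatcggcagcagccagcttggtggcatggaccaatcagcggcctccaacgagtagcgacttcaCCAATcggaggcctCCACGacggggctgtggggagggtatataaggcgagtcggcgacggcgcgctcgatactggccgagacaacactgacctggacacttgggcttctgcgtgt
Hsp90b1: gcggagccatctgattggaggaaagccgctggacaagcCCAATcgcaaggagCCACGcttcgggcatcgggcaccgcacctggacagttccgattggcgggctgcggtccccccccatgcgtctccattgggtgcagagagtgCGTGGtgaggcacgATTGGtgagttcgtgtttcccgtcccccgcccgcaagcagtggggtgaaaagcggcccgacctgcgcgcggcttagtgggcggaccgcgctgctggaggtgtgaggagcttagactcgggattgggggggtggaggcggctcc
Calr: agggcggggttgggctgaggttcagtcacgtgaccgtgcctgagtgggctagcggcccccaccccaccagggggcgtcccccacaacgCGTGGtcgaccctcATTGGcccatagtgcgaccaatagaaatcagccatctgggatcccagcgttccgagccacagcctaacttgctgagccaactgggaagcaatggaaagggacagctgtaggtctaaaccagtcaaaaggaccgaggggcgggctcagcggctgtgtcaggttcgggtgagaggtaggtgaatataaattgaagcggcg
Canx: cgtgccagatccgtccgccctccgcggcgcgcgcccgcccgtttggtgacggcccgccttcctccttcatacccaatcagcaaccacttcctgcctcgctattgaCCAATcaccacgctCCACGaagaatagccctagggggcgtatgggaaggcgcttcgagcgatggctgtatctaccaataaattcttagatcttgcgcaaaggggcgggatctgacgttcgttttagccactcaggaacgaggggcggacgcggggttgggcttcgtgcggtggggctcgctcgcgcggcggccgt
Herpud1: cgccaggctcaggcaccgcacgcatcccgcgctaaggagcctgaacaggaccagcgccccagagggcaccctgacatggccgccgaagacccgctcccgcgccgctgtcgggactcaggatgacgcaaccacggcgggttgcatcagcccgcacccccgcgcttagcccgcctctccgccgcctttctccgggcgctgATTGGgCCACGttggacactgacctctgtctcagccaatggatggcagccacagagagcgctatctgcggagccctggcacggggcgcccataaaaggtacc

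Hspa5 (chr2:34771840-34772139, plus strand) had an exact match to the type I element at positions -65 to -47 from the start, with the letters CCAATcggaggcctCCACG. Hsp90b1 (chr10:86705395-86705694, minus strand) had a pair, one at -212 to -194 on the gene's strand and one at -107 to -89 on the opposite strand. In Calr (chr8:84846882-84847181, minus strand) it lay on the opposite strand, at -162 to -144. In Canx (chr11:50325624-50325923, minus strand) it lay at -145 to -127. Herpud1 (chr8:94386179-94386478, plus strand) had the type II letters ATTGGgCCACG at -52 to -42. Herpud1 also held the C/EBP-ATF composite letters TGATGNAA, a form bound by ATF4 and its partners, at -112 to -105 on the opposite strand. Those letters were in 3.97% of all windows. The XBP1 element, searched as TGACGTGG, was in none of the 10 windows and in 0.676% of all windows. Pdia3, Pdia4, Sdf2l1, Dnajb9 and Xbp1 held no exact match to any of these elements in the window, and near matches were not looked for. A match of letters is a description and not a binding site.

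**Figure D1:**
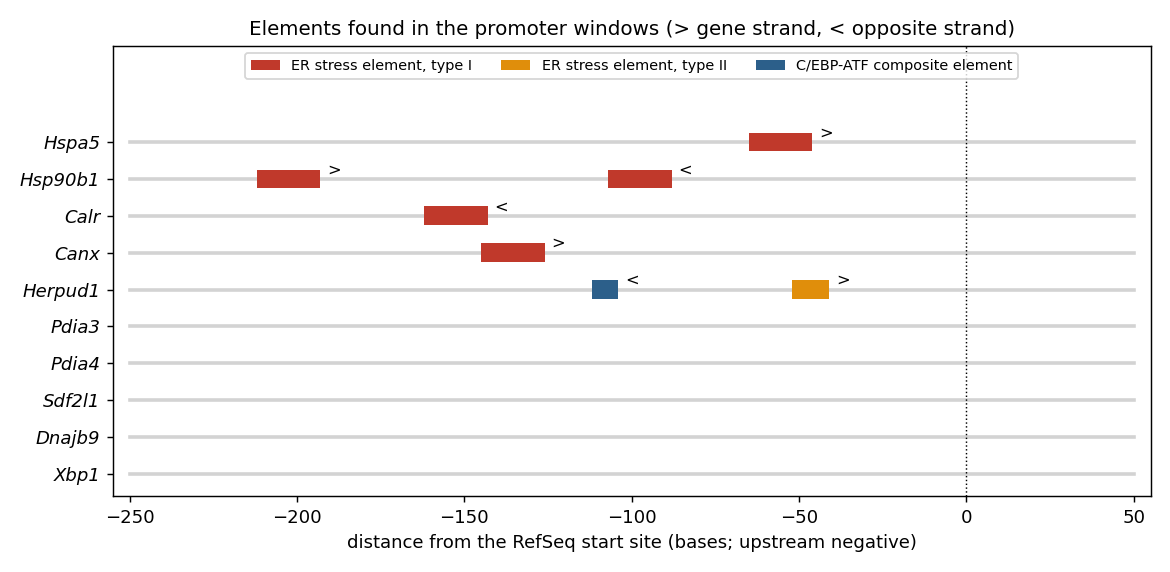
Elements found in the promoter windows of the 10 genes, by distance in bases from the RefSeq start site (upstream negative), with the strand marked beside each. Type I elements lie in Hspa5, Hsp90b1 (a pair), Calr and Canx, and a type II element in Herpud1, at -52 to -42.

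Hepacam itself was at 24.4, 22.6 and 20.9 RPKM in knockdown replicates 1, 2 and 3, against 37.3, 33.4 and 35.9 RPKM in control replicates 1, 2 and 3 (log2 change -0.63, SE 0.07, limma adjusted p = 0.00924). Without control replicate 3 the adjusted p was 0.0526. Depth ran from 15816576 to 16384937 reads in knockdown libraries and from 14903198 to 17341842 reads in control libraries, as worked out from the steps in the RPKM values. Markers of hippocampal neurons, such as Prox1 of the dentate gyrus and Spink8 of CA1, were at 1 RPKM or more on average for 9 of 9. Across 13864 genes tested with limma on log2(RPKM + 1), 842 passed an adjusted p of 0.05 (6.07%), with 587 of them up in the knockdown group (4.23%) and 255 down (1.84%). After scaling by the median gene the split was 336 higher and 347 lower, and with quantile normalization 390 higher and 341 lower. The count was 421 and 328 without knockdown replicates 2 and 3, and 235, 126 and 98 without control replicates 1, 2 and 3.

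None of the 10 ER genes passed the threshold, against the background of 6.07%. In limma the adjusted p-values ran from 0.143 for Sdf2l1 to 0.924 for Herpud1. At an unadjusted p under 0.05, Sdf2l1 and Xbp1 were counted, 2 of 10 beside 24.2% of all genes tested. Limma-voom on the whole reads behind the values also called 0 of the 10. The log2 changes were positive for 3 genes and negative for 7, with a median of -0.10 beside 0.05 over all genes tested. The 95% intervals of all 10 lay between -0.53 (the lower bound of Calr) and 0.50 (the upper bound of Sdf2l1). In this fit, changes outside 0.693-fold to 1.41-fold thus lay beyond the interval of each gene. These bounds are not those of every scaling. After scaling by the median gene, all 10 log2 changes were lower. That of Calr was then -0.35 (SE 0.13) and that of Sdf2l1 0.19. A p that misses the threshold does not show that the groups have the same level.

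Levels per length differed widely between these genes. Calr was the highest, with a mean of 149.9 RPKM over the 6 libraries, and lay above Canx in 6 of 6. Canx at 63.6 and Pdia3 at 61.8 RPKM were not separated, since Canx was the higher in 4 of 6 libraries. Pdia3 lay above Hspa5 (55.6 RPKM), Hspa5 above Hsp90b1 (34.1 RPKM), Hsp90b1 above Xbp1 (24.7 RPKM) and Xbp1 above Herpud1 (18.2 RPKM) in 6 of 6 libraries each. The lowest 4 were close together: Herpud1 lay above Pdia4 (17.8 RPKM) in 4 of 6, Pdia4 above Dnajb9 (15.8 RPKM) in 4 of 6 and Dnajb9 above Sdf2l1 (15.5 RPKM) in 3 of 6.

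**Figure D2:**
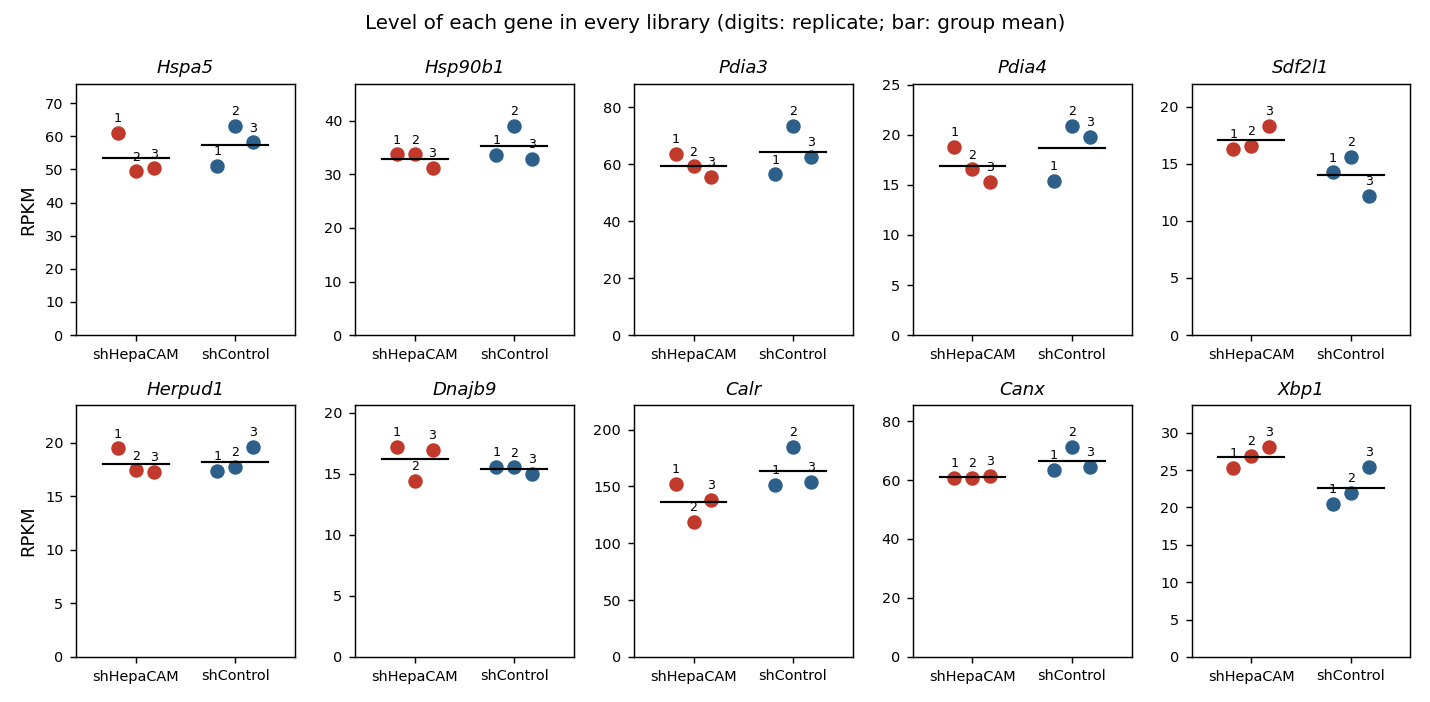
Level in RPKM of each of the 10 genes in every library, shHepaCAM left and shControl right, with digits for the replicate and a bar for the group mean. The groups overlap for 8 of the 10 genes, and Calr is the highest at 118 to 184 RPKM.

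The core chaperones were followed first. Hspa5 (ENSMUSG00000026864), the HSP70 family chaperone of the ER (also called BiP), which also holds the stress sensors inactive, stood at 61.1, 49.4 and 50.3 RPKM in knockdown replicates 1, 2 and 3, against 51.2, 63.3 and 58.2 RPKM in control replicates 1, 2 and 3. Each group held both low and high libraries and they overlapped. The means were 53.6 ± 6.51 RPKM in knockdown and 57.5 ± 6.07 RPKM in control libraries (SD, n = 3 each). The log2 change was -0.10 with a 95% interval from -0.35 to 0.15 (limma adjusted p = 0.603). Hsp90b1 (ENSMUSG00000020048), the HSP90 family chaperone of the ER (GRP94), stood at 33.7, 33.7 and 31.2 RPKM in knockdown libraries, against 33.7, 39.1 and 32.95 RPKM in control libraries. The higher control mean came from replicate 2, and the log2 change was -0.09 (interval -0.28 to 0.09, limma adjusted p = 0.503).

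Sdf2l1 and Dnajb9, which work with Hspa5, did not pass the test either. Sdf2l1 (ENSMUSG00000022769), which works with Hspa5 and J-domain proteins to keep clients soluble, stood at 16.3, 16.6 and 18.3 RPKM in knockdown libraries, against 14.2, 15.6 and 12.2 RPKM in control libraries. Its groups did not overlap. Of the 10 genes, 2 had groups that did not overlap, beside 31.5% of all genes tested: Sdf2l1 higher in knockdown (20.9% of all genes) and Canx lower (10.7%). The log2 change of 0.27 (SE 0.10, interval 0.05 to 0.50) had a limma adjusted p of 0.143. It rests on 286 to 333 reads in knockdown and 201 to 300 reads in control libraries, the fewest of the 10 genes. Dnajb9 (ENSMUSG00000014905), a J-domain protein also called ERdj4 that brings Hspa5 to IRE1, stood at 17.2, 14.4 and 16.9 RPKM in knockdown libraries, against 15.5, 15.5 and 15.0 RPKM in control libraries. The control libraries of Dnajb9 lay within the range of the knockdown libraries, with a log2 change of 0.07 (interval -0.11 to 0.25, limma adjusted p = 0.627) that was -0.02 after scaling by the median gene.

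Lectins and disulphide isomerases of the glycoprotein cycle came next. Calr (ENSMUSG00000003814), the soluble lectin chaperone and calcium store of the ER lumen, stood at 152, 118 and 138 RPKM in knockdown libraries, against 152, 184 and 154 RPKM in control libraries. Knockdown replicate 1 alone reached the control range. The means were 136 ± 17.0 RPKM in knockdown and 163 ± 18.3 RPKM in control libraries (SD, n = 3 each), and the change was -0.26 on the log2 scale (SE 0.11, interval -0.53 to 0.01, limma adjusted p = 0.215). Canx (ENSMUSG00000020368), its membrane-bound counterpart, stood at 60.6, 60.7 and 61.4 RPKM in knockdown libraries, against 63.4, 71.1 and 64.6 RPKM in control libraries. All 3 knockdown libraries lay below the control libraries, by -0.12 on the log2 scale (SE 0.06, interval -0.26 to 0.02, limma adjusted p = 0.272).

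Pdia3 (ENSMUSG00000027248), or ERp57, the isomerase that binds Calr and Canx and acts on glycoproteins, stood at 63.7, 59.2 and 55.6 RPKM in knockdown libraries, against 56.4, 73.5 and 62.4 RPKM in control libraries. The groups overlapped, and the log2 change of -0.10 (interval -0.34 to 0.14, limma adjusted p = 0.594) was 0.0023 without control replicate 2. Pdia4 (ENSMUSG00000025823), or ERp72, a further isomerase, stood at 18.8, 16.5 and 15.3 RPKM in knockdown libraries, against 15.4, 20.9 and 19.7 RPKM in control libraries. Here too a control library, replicate 1, was nearly as low as the lowest knockdown library, and the log2 change was -0.13 (interval -0.42 to 0.16, limma adjusted p = 0.550).

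Herpud1 and Xbp1 stand for degradation and control. Herpud1 (ENSMUSG00000031770), a membrane protein that organises the degradation of misfolded ER proteins, stood at 19.5, 17.4 and 17.3 RPKM in knockdown libraries, against 17.4, 17.7 and 19.6 RPKM in control libraries. One high library in each group and near-equal values in the others gave a log2 change of -0.01 (interval -0.19 to 0.16, limma adjusted p = 0.924). Xbp1 (ENSMUSG00000020484), the transcription factor of the IRE1 branch, stood at 25.3, 26.9 and 28.1 RPKM in knockdown libraries, against 20.5, 21.9 and 25.5 RPKM in control libraries. The overlap was between knockdown replicate 1 and control replicate 3 alone. The log2 change was 0.24 (SE 0.09, interval 0.03 to 0.44, limma adjusted p = 0.158). A value per gene sums the unspliced and the IRE1-spliced form of Xbp1, so the splicing itself was not measured here.

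**Figure D3:**
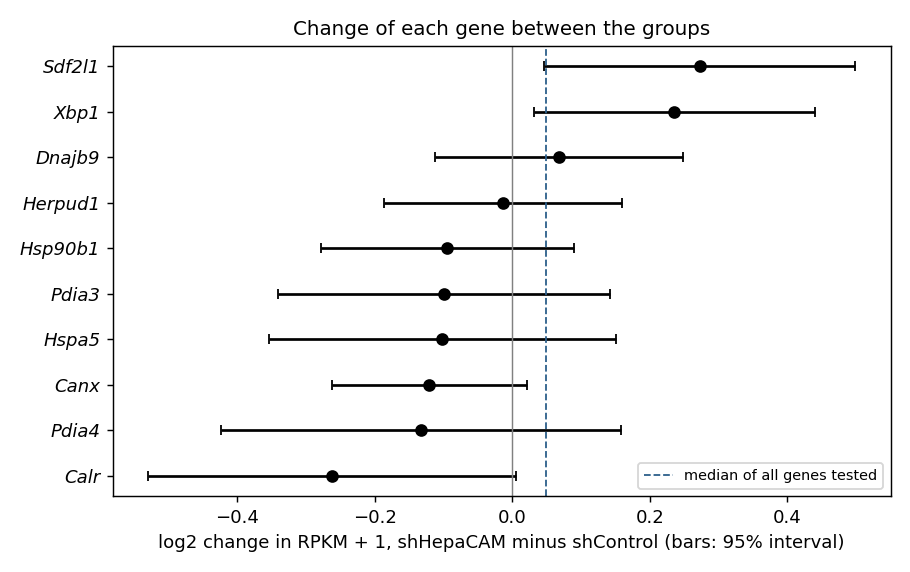
Log2 change in RPKM + 1 of each gene, shHepaCAM minus shControl, with the 95% interval of limma; the dashed line marks the median of all genes tested at 0.05. Sdf2l1 at 0.27 and Xbp1 at 0.24 are the highest, Calr at -0.26 the lowest, and none passed the adjusted threshold.

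The spread between libraries of 1 group was above what counting reads gives in 18 of 20 gene and group values, the others being Dnajb9 in control and Canx in knockdown libraries. The coefficient of variation of Hspa5 was 12.1% among knockdown and 10.6% among control libraries, where counting error gives 1.66% and 1.58%. For Calr it was 12.5% among knockdown and 11.2% among control libraries, where counting gives 1.26% and 1.13%. For Sdf2l1 in knockdown libraries it was 6.48%, close to the 5.73% of counting. It was 2.09% for Dnajb9 in control libraries, where counting gives 3.94%, and 0.703% for Canx in knockdown libraries, where counting gives 1.47%. The SE of the log2 change had a median of 0.09 over the 10 genes and 0.07 over all genes tested whose mean level lay within their range.

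The spread had a pattern by library. Control replicate 2 was the highest of the 6 libraries for 6 of the 10 genes: Hspa5, Hsp90b1, Pdia3, Pdia4, Calr and Canx. It was the highest for 12.0% of all genes tested. Knockdown replicate 2, the highest for 34.1% of all genes tested, was the highest for 0 of the 10. Relative to each gene's own mean, control replicate 2 was at 0.19 for Hspa5, 0.25 for Pdia3, 0.23 for Pdia4, 0.20 for Hsp90b1, 0.31 for Calr and 0.16 for Canx on the log2 scale. Sdf2l1, Herpud1, Dnajb9 and Xbp1 were not high there: the deviation of control replicate 2 was 0.02, -0.03, -0.02 and -0.16. As a description over the 6 libraries, Pearson's r was 0.92 between Hspa5 and Pdia4, 0.88 between Hspa5 and Pdia3, 0.82 between Hspa5 and Calr and -0.64 between Calr and Xbp1, values that share library and depth.

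**Figure D4:**
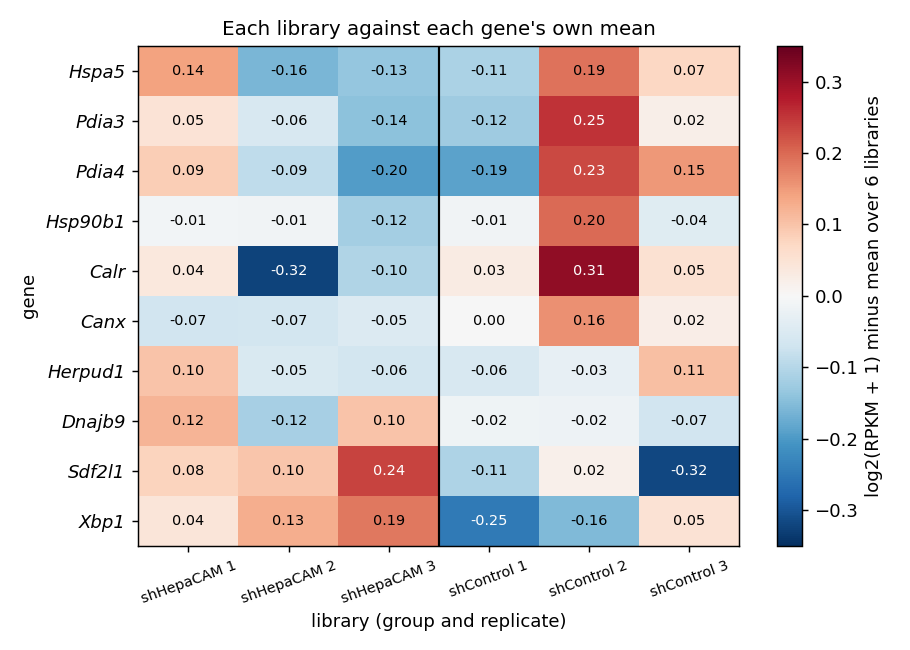
Log2(RPKM + 1) of each gene in each library minus the gene's mean over the 6 libraries, shHepaCAM libraries left of the line and shControl libraries right of it. Control replicate 2 is above the mean by 0.16 for Canx to 0.31 for Calr in the 6 genes it is highest for, while Xbp1 there is at -0.16.

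Markers of other cell types differed between the same libraries. Choroid plexus epithelium, a secretory tissue, had a summed level over 12 markers of 2728, 2031 and 73.3 RPKM in knockdown replicates 1, 2 and 3, against 120, 4896 and 4125 RPKM in control replicates 1, 2 and 3. Control replicate 2 was thus the highest for these markers as well, and the libraries low in them were knockdown replicate 3 and control replicate 1. In both of these, 6 of the 10 genes were below their own mean (Hspa5, Hsp90b1, Pdia3, Pdia4, Herpud1 and Canx), as were 20.9% of all genes tested. Calr was at -0.10 in knockdown replicate 3 and 0.03 in control replicate 1. The part of choroid plexus in these values was not tested beyond the fits that follow. None of the 12 markers passed between the groups in limma, with 0 at an unadjusted p under 0.05 as well. Yet 0 of the 12 had a log2 change above 0 (median -0.57), and intervals were wide, from -6.09 to 3.92 for Ttr. A difference between the groups in choroid plexus is thus not excluded. With log2 Ttr, the main choroid plexus transcript, as a covariate, the log2 changes were -0.07 for Hspa5, -0.06 for Pdia3, -0.08 for Pdia4 and -0.25 for Calr, and 0 of the 10 were called. When those low libraries were both dropped, the log2 changes were -0.14 for Hspa5, -0.14 for Pdia3, -0.19 for Pdia4 and -0.33 for Calr, and 0 of the 10 were called. The covariate thus gave values nearer 0 for these 4 genes, and dropping the libraries gave values farther from 0. Canx, also highest in control replicate 2, moved likewise, from -0.121 to -0.114 and -0.158. Hsp90b1, another such gene, did not: it went from -0.094 to -0.076 with the covariate and -0.088 without the libraries, nearer 0 in both.

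Plasma cells, which secrete antibody and are known for high Xbp1 and ER chaperones, had a summed level over 12 markers of 719, 1348 and 2691 RPKM in knockdown libraries, against 16.2, 17.6 and 14.4 RPKM in control libraries. Of the 8 of these markers tested, 7 rose and 0 fell, and Tnfrsf17, Irf4, Prdm1 and Sdc1 lay under the filter. Igkc was the largest part of the sum, at 489, 927 and 1735 RPKM in knockdown replicates 1, 2 and 3. Jchain, Mzb1, Tent5c and Ighg2b had the same order, while Ighm, Igha and Ighg2c did not. Among the knockdown libraries, Xbp1, Sdf2l1 and Canx had the same order as the sum, lowest in replicate 1 and highest in replicate 3. So did 12.6% of all genes tested. Hsp90b1, Pdia3, Pdia4 and Herpud1 had the opposite order, as did 12.7% of all genes tested, and Hspa5, Calr and Dnajb9 had neither. Some of these orders rest on near-equal values. The spread of Canx among knockdown libraries (0.703%) was below counting error (1.47%), and Hsp90b1 was at 33.73 and 33.71 RPKM in knockdown replicates 1 and 2. The part of plasma cells in these values was not tested. Microglia markers rose for 5 of 8 and fell for 0, with sums of 534, 546 and 639 RPKM in knockdown and 344, 301 and 289 RPKM in control libraries. Hippocampal neuron markers fell for 2 of 9, Slc17a7 and Snap25, and rose for 0. The median log2 change of the 9 was 0.01, with 5 of 9 above 0. Zbtb20 was the highest, at 0.36 (limma unadjusted p = 0.0191, limma adjusted p = 0.127). The sums over the 9 were 785, 609 and 754 RPKM in knockdown and 940, 945 and 984 RPKM in control libraries. Slc17a7, Snap25 and Syt1 weighed most in these sums. The neuron markers did not move together in knockdown replicate 2. Slc17a7, Snap25, Syt1, Neurod6 and Spink8 were at their lowest of all libraries there, while Rbfox3, Prox1 and Zbtb20 were at their highest. Knockdown replicate 2, with the lowest neuron sum, was the lowest library for 3 of the 10 genes, Hspa5, Calr and Dnajb9. It was the lowest for 18.1% of all genes tested. Knockdown replicate 3, with a neuron sum near that of replicate 1, was the lowest for 4, Hsp90b1, Pdia3, Pdia4 and Herpud1, and for 17.0% of all genes tested. The part of cell makeup in this was not tested. Astrocyte, oligodendrocyte and endothelial markers had 0 of 7, 0 of 6 and 0 of 6 past the threshold in limma, and 1, 1 and 0 at an unadjusted p under 0.05.

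The sensors upstream did not pass the test, and the sign of Atf6 and Eif2ak3 turned with the scaling. Atf6 averaged 7.85 ± 0.52 RPKM in knockdown and 7.76 ± 0.38 RPKM in control libraries (log2 change 0.01, limma adjusted p = 0.925). Eif2ak3, which encodes PERK, averaged 3.79 ± 0.25 RPKM in knockdown and 3.62 ± 0.29 RPKM in control libraries (log2 change 0.05, limma adjusted p = 0.751). Ern1, which encodes IRE1, averaged 2.17 ± 0.42 RPKM in knockdown and 1.80 ± 0.19 RPKM in control libraries (SD, n = 3 each throughout; log2 change 0.17, limma adjusted p = 0.444). These 3 sensors were named after their values were seen. Of 11 sensors and transcription factors tested, 0 passed in limma, 0 in limma-voom, and 3 did at an unadjusted p under 0.05. The smallest p-values were those of Nfyc, a subunit of NF-Y, at 0.33 (limma adjusted p = 0.0723), and of Creb3l1, a relative of ATF6, at 0.45 (limma adjusted p = 0.117). The remaining gene at an unadjusted p under 0.05 was Atf6b, named after its value was seen. It was lower in knockdown, at -0.20 (limma unadjusted p = 0.0287, limma adjusted p = 0.155).

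Other genes of ER folding are set beside the 6.07% of all genes that passed. Of 26 further chaperones and folding enzymes tested, Hyou1 fell, 0 rose and 25 did not pass, with a median log2 change of 0.00396. At an unadjusted p under 0.05, 5 were higher and 2 lower. The largest change was that of Wfs1, named after its value was seen. It was higher in knockdown, at 0.63 (limma unadjusted p = 0.00843, limma adjusted p = 0.0840). Hyou1, the large HSP70 relative that exchanges nucleotide on Hspa5, stood at 11.4, 11.04 and 11.96 RPKM in knockdown libraries, against 16.5, 16.6 and 14.9 RPKM in control libraries. No knockdown library reached the control range, and the log2 change was -0.45 (SE 0.07, limma adjusted p = 0.0180). The adjusted p was 0.0635, 0.0830 and 0.0512 without control replicates 1, 2 and 3, and 0.0962 when the pair low in choroid plexus markers was dropped, where the log2 change was -0.46.

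In the glycan trimming and lectin cycle, Edem1 rose, 0 fell and 11 of 12 did not pass (median 0.05). At an unadjusted p under 0.05, 2 were higher and 1 lower. Edem1, which hands misfolded glycoproteins to degradation and is a known XBP1 target, stood at 4.53, 5.50 and 5.58 RPKM in knockdown libraries, against 3.66, 3.53 and 3.03 RPKM in control libraries. The groups were apart, 0.49 higher on the log2 scale in knockdown (SE 0.10, limma adjusted p = 0.0400). After scaling by the median gene, limma gave an adjusted p of 0.0563, and after quantile normalization 0.0601. In ER-associated degradation, Os9 fell, 0 rose and 18 of 19 did not pass (median -0.02), with 2 higher and 1 lower at an unadjusted p under 0.05. Os9, a lectin of the degradation complex, stood at 65.9, 57.1 and 60.7 RPKM in knockdown libraries, against 76.1, 82.5 and 78.7 RPKM in control libraries (log2 change -0.37, SE 0.07, limma adjusted p = 0.0308). Leaving out any 1 library but knockdown replicate 1 ended the call of Edem1 and of Os9, with limma adjusted p-values of 0.0840 to 0.137 for Edem1 and 0.0561 to 0.120 for Os9. Of 21 genes of the translocon, signal peptidase and oligosaccharyl transfer, 0 passed in limma, 0 in limma-voom, and 3 did at an unadjusted p under 0.05 (median 0.04). Sec11c, a signal peptidase subunit, at 0.20 (limma adjusted p = 0.0978) and Ssr1, a translocon-associated protein, at 0.17 (limma adjusted p = 0.147) had the smallest p. The remaining gene at an unadjusted p under 0.05 was Dad1, named after its value was seen. It was lower in knockdown, at -0.23 (limma unadjusted p = 0.0377, limma adjusted p = 0.180).

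**Figure D5:**
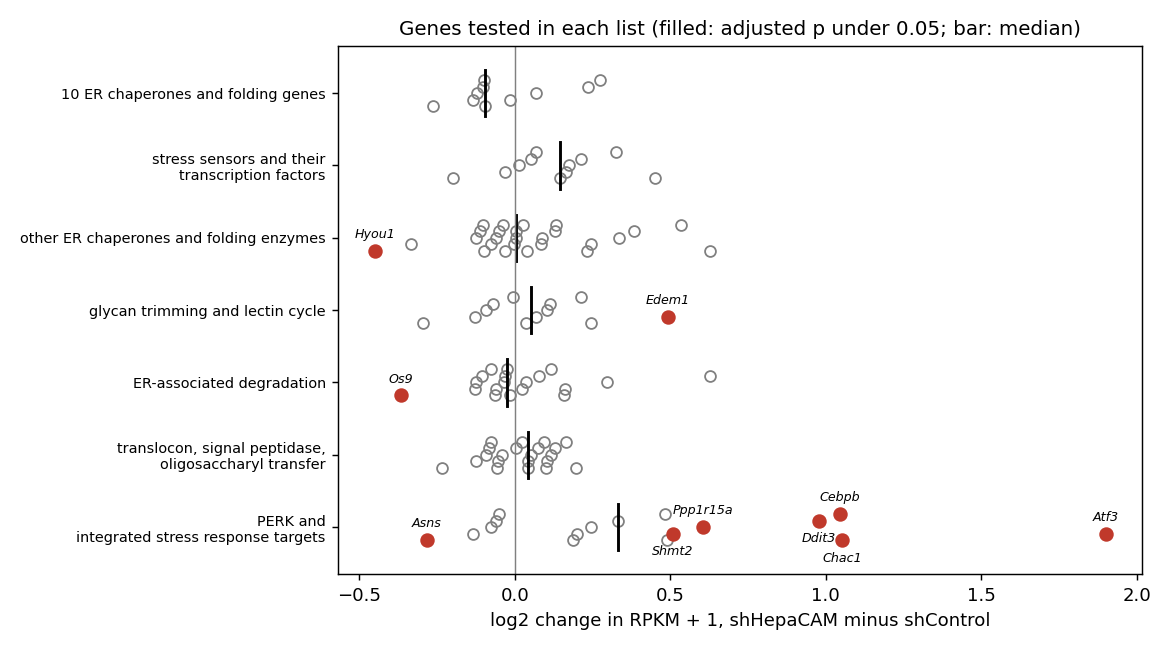
Log2 change in RPKM + 1, shHepaCAM minus shControl, of each gene tested in the 10 ER genes and in 6 related lists; filled points passed the adjusted threshold and bars mark medians. The 10 ER genes hold no filled point (median -0.10), while the PERK and integrated stress response list holds 7 (median 0.33).

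Targets of the PERK branch and the integrated stress response held 7 of the calls, with Ddit3 and Chac1 among them. Of 17 tested, 6 rose, 1 fell and 10 did not pass, beside 4.23% higher and 1.84% lower among all genes tested. The median log2 change was 0.33, beside 0.05 over all genes tested. Ddit3 (CHOP), a transcription factor of prolonged stress, stood at 25.7, 28.7 and 28.7 RPKM in knockdown libraries, against 14.0, 13.4 and 13.3 RPKM in control libraries. Every knockdown library was well above the control range (log2 change 0.98, SE 0.06, limma adjusted p = 0.00139). Chac1, which breaks down glutathione, stood at 10.1, 11.8 and 9.58 RPKM in knockdown libraries, against 5.07, 4.37 and 4.18 RPKM in control libraries (log2 change 1.05). Ppp1r15a (GADD34), which reverses the translation block of PERK, stood at 8.52, 8.38 and 8.35 RPKM in knockdown libraries, against 5.87, 4.69 and 5.05 RPKM in control libraries (log2 change 0.61). The groups of both genes were apart, and Chac1 kept the call under all 18 alternatives, as Ddit3 did.

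The transcription factors Cebpb and Atf3 rose by 1.04 and 1.90 and Shmt2, a serine and glycine enzyme of mitochondria, by 0.51. Atf3 stood at 4.49, 12.3 and 5.13 RPKM in knockdown libraries, against 1.09, 1.55 and 0.623 RPKM in control libraries, so that knockdown replicate 2 stood well above the others. Asns, the asparagine synthetase gene and a known ATF4 target, fell by 0.28 (limma adjusted p = 0.0362) and was named after its value was seen. The number called in this list was 3 without knockdown replicate 3, 3 without control replicate 1, and 2 without either control replicate 2 or control replicate 3. It was 2 when the pair low in choroid plexus markers was dropped, where the log2 changes were 0.69 for Ppp1r15a, 0.52 for Shmt2, 1.24 for Cebpb, 2.07 for Atf3 and -0.24 for Asns. Singly, Ppp1r15a lost the call without control replicate 2 or 3, and Shmt2, Cebpb and Atf3 lost it without knockdown replicate 3 or any 1 control replicate. Asns lost it without any 1 library other than knockdown replicate 1.

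Ddit3 and Hspa5 are also given as a difference within each library, as a description that follows from the values above. On the log2(RPKM + 1) scale, Ddit3 minus Hspa5 was -1.22, -0.76 and -0.79 in knockdown replicates 1, 2 and 3, against -1.80, -2.16 and -2.05 in control replicates 1, 2 and 3. The groups did not overlap, and the means of -0.923 ± 0.254 in knockdown and -2.003 ± 0.182 in control libraries differed by 1.08 (SD, n = 3 each). The pair was chosen with its values known, so no test is read from it.

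Genes other than the 10 with the same ER stress elements were looked up in the same fit. Of 33 such gene symbols with the type I letters, 14 were tested, and 6 of these 14 are also in the lists above. None passed in limma, beside 6.07% of all genes, and the median log2 change was -0.00617. At an unadjusted p under 0.05 there were 3: Creld2 at 0.38, Derl3 at 0.63 and Pdia6 at -0.33. These were named after their values were seen, and they point in both directions. Of 11 further symbols with the type II letters, 8 were tested, with 0 past the threshold in limma, 0 at an unadjusted p under 0.05 and a median of 0.0225.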

How the data were processed

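RNA from mouse hippocampus was sequenced in 6 libraries, 3 labelled shHepaCAM and 3 labelled shControl; groups and replicate numbers come from the library titles. The authors deposited 1 RPKM value per gene and library. Tools named in the submitters' processing notes are Bowtie2 2.0.6 and TopHat2 2.0.12, and the build is mm39. Which counter, gene models and strand option the authors chose was not given in the sources used here. Symbols, classes and exon lengths came from GENCODE M21, which is on another build, for 29805 of 29872 identifiers. The members, gene lists and tests were chosen with earlier results of these data known.

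Each RPKM value times the exon length is a whole multiple of what 1 read is worth, which gave the depth and the reads: with the annotated length, 27390 genes were whole to within 0.01 read throughout, all 10 ER genes among them. Tests used limma 3.58.1 (R 4.3.3) with a mean-variance trend on log2(RPKM + 1), a scale that understates the change of low genes, on genes averaging 1 RPKM or more, with Benjamini-Hochberg adjustment over 13864 genes and a threshold of 0.05. The fit was tested on simulated data. The simulated libraries did not differ in cell makeup, so that test does not cover such differences. Intervals are at the 95% level. Counting error covers reads only. No 2 libraries agreed within sampling noise (lowest chi-square 4.11 per degree of freedom), so none was taken as a repeat. The named genes are Hepacam, the 10 ER genes, Ddit3, per list those past the threshold (at most 6, by p) or the 2 with the smallest p, and the 5 genes most like Hspa5 and most like the mean of the 10. Promoter windows are from RefSeq on GRCm38.p6 and were matched by symbol for 10 of 10 genes; protein sequences were not used here. Alternatives were other scalings, filters, pseudocounts and variance models, a replicate block, limma-voom on reads, protein-coding genes only, log2 Ttr as a covariate and leaving out libraries. Python 3.11.15 and matplotlib 3.10.9 drew the figures.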

Additional observations from a re-analysis of the deposited data

How the results depend on the processing

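None of the 10 ER genes passed the threshold under any of 18 alternatives; the lowest adjusted p was 0.110, for Sdf2l1 with a filter at 5 RPKM. Of the 180 values of these genes under alternatives, 6 changed sign: Dnajb9 was -0.0159 after scaling by the median gene, Herpud1 was 0.0027 with log2 Ttr as a covariate, and with 1 library left out Herpud1 ran from -0.0665 to 0.0355 and Pdia3 from -0.19 to 0.0023. Among the sensors, Eif2ak3 was -0.0410 and Atf6 -0.0549 with quantile normalization, Eif2ak3 was -0.0194 and Atf6 -0.0655 after scaling by the median gene, and Atf6 ran from -0.0242 to 0.0598 with 1 library left out. The cause was not tested. The median of all genes was 0.05, and -0.03 with scaling to the median gene. The transcriptome count of 842 was 169 with no filter, 157 with the replicate block, 104 when the pair low in choroid plexus markers was dropped, and 98 to 867 with 1 library left out. Hepacam was -0.54 (limma adjusted p = 0.0695) without that pair, and -0.68 to -0.58 with 1 library left out. The PERK list had 3 calls with no filter, 3 with the replicate block, 2 without that pair, and 2 to 7 with 1 left out. Further chaperones had 0 with the block, 0 without that pair, 2 with limma-voom and 0 to 2 with 1 left out. The lectin cycle had 0 with quantile normalization, median scaling, no filter, the 5 RPKM filter, the block, log2 Ttr and without that pair, and 0 to 1 with 1 left out. Degradation had 0 with no filter, without trend, with the block and without that pair, and 0 to 1 with 1 left out; the translocon list had 0 to 1. Ddit3 minus Hspa5 ran from 0.9998 to 1.23 with 1 library left out. Same-numbered libraries did not deviate together (r of -0.21, 0.015 and -0.14 across genes). The highest r, 0.27, was between knockdown replicate 3 and control replicate 1, the libraries low in choroid plexus markers. Differences of that kind can hide a shared batch, so these values cannot show whether same-numbered libraries are paired. The replicate block called 0 of the 10 ER genes. Depth of 201 or more reads per ER gene and library leaves the spread between libraries, rather than counting, as the limit for most of them.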

Other observations

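The genes whose levels over the 6 libraries were most like those of Hspa5, by Pearson's r of log2(RPKM + 1), were Tmem259 (0.988), B4galt2 (0.982), Ntn5 (0.978), Fbxo16 (0.976) and Crtac1 (0.974). Tmem259 stood at 31.8, 29.4 and 29.5 RPKM in knockdown replicates 1, 2 and 3, against 29.2, 32.5 and 31.1 RPKM in control replicates 1, 2 and 3. Like Hspa5, it was high in knockdown replicate 1 and in control replicates 2 and 3. Without control replicate 2 and knockdown replicate 1, the libraries farthest from the median of Hspa5, r was 0.963, 0.991, 0.928, 0.943 and 0.9497 in the same order. For the mean of the 10 standardized ER genes, the most like were Tmem259 (0.981), Slc30a2 (0.975), Dstn (0.973), Taf6l (0.971) and Ldhd (0.966). Dstn stood at 75.9, 68.7 and 71.6 RPKM in knockdown libraries, against 67.6, 76.9 and 72.8 RPKM in control libraries. With all genes tested to choose from and 6 libraries, high values of r occur often, and these are given as a description.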
